A study of Mus musculus with 45 samples.

Results

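The 41 genes described here act in the uptake, oxidation and related turnover of fatty acids and in ketone use, mostly in mitochondria. They were chosen by symbol, and all 41 were found among the 23284 gene symbols listed for each library. They fall into 8 steps, with 7 genes of uptake, 4 of activation, 4 of the carnitine shuttle, 16 of beta-oxidation, 3 of electron transfer, 3 of malonyl-CoA turnover, 2 thioesterases and 2 of ketone use.

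Poly(A) RNA-seq was made from mouse heart in 6 libraries that form 5 groups, as one arm of a study of the cardiac transcription factor Gata4 in development and heart disease. Banding had 1 library, from hearts stressed by surgical constriction of a large vessel, and sham had 1 library, from hearts that went through the operation without the band. Adult heart had 2 libraries, E12.5 heart labelled Gata4 KO had 1, and E12.5 heart, from the midgestation embryo, had 1. The labels give no vessel, no time after the operation and no age for the banding and sham hearts. They name the alleles Gata4fbio, Rosa26BirA, cTNTcre and Gata4flox for the whole series and assign none to a single RNA library. The cTNT promoter drives Cre in heart muscle cells, so other cells would keep a floxed gene. The RNA was pooled before library preparation, so 1 library may hold several animals, and whether the 2 adult libraries stem from separate animals is not stated. Gata4 stood at 6.13 in the library labelled Gata4 KO and 5.93 in the E12.5 library on the scale log2(FPKM + 1), from 4159 and 4290 reads, and was thus not lower under the label. FPKM counts fragments relative to transcript length and to all mapped reads, and all levels below are log2(FPKM + 1) unless FPKM is named.

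In the textbook pathway, lipoprotein lipase frees fatty acids in the capillaries, carriers bring them into the muscle cell and acyl-CoA synthetases activate them. Carnitine then ferries the acyl groups through the mitochondrial membranes, and beta-oxidation shortens them in rounds of dehydrogenation, hydration, renewed dehydrogenation and cleavage, with the first electrons passed on by the electron transfer flavoprotein. The adult heart lives mainly on this route and the embryonic heart relies more on glucose and lactate. Ketone bodies enter the same mitochondria and are turned back into acetyl-CoA there.

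Mapped reads ranged from 12086929 to 21056784 per library. Listed genes took 58.0% of mapped reads in banding and 55.6% in sham, against 83.6% and 83.9% in the adult libraries, 76.8% in the library labelled Gata4 KO and 75.9% in E12.5. FPKM divides by all mapped reads. Most genes lay lower in sham than in E12.5 or adult: over all measured genes the median difference was -1.28 for sham minus E12.5 and -0.74 for sham minus adult. The ribosomal RNA precursor Rn45s, which poly(A) selection should deplete, stood at 12.96 in banding and 12.94 in sham, against 8.65 and 8.94 in adult, 6.21 in the library labelled Gata4 KO and 7.56 in E12.5. Differences are given as deposited, and counts also after median-of-ratios scaling, which sets the median ratio of genes expressed in all libraries equal. That scaling left medians over all measured genes of -0.17 for sham minus E12.5, -0.01 for sham minus adult and -0.12 for adult minus E12.5, where the deposited median was -0.57. Ratios between genes of the same library do not move with either scaling. The cardiomyocyte markers all had at least 1 FPKM in every library, 9 of 9. They summed to 26000 FPKM in banding and 29395 FPKM in sham, against 49457 and 49516 FPKM in adult. Their sums were 21775 FPKM in the library labelled Gata4 KO and 32780 FPKM in E12.5. Erythroid markers summed to 0.521 and 1.31 FPKM in adult, against 64667 FPKM in the library labelled Gata4 KO and 21255 FPKM in E12.5. The part of cell make-up in the differences below was not tested.

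The 41 genes together made up 1.85% of the summed FPKM of listed genes in banding and 2.30% in sham, against 3.54% and 3.62% in the adult libraries, 0.339% in the library labelled Gata4 KO and 0.390% in E12.5. Adult heart thus held the largest share of this transcript mass, the E12.5 libraries the smallest, and the operated hearts lay between. Ranks within each library ran in the same order. The median member stood at percentile 91.9 of expressed genes in banding and 93.6 in sham, against 95.7 and 96.2 in adult, 72.0 in the library labelled Gata4 KO and 74.9 in E12.5. Uptake genes supplied 62.3% of the members' FPKM in banding and 60.1% in sham, against 49.2% and 48.3% in adult, 27.8% in the library labelled Gata4 KO and 28.5% in E12.5. Beta-oxidation genes supplied 18.0% in banding and 20.0% in sham, against 32.7% and 34.1% in adult, 45.9% in the library labelled Gata4 KO and 46.3% in E12.5. The most abundant member was Fabp4 in banding and sham, at 1723 and 2088 FPKM, and Fabp3 in the other 4 libraries, at 3742 and 3802 FPKM in adult, 312 FPKM in the library labelled Gata4 KO and 397 FPKM in E12.5. In bulk tissue, fewer cells of a type and less RNA per cell cannot be told apart.

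**Figure D1:**
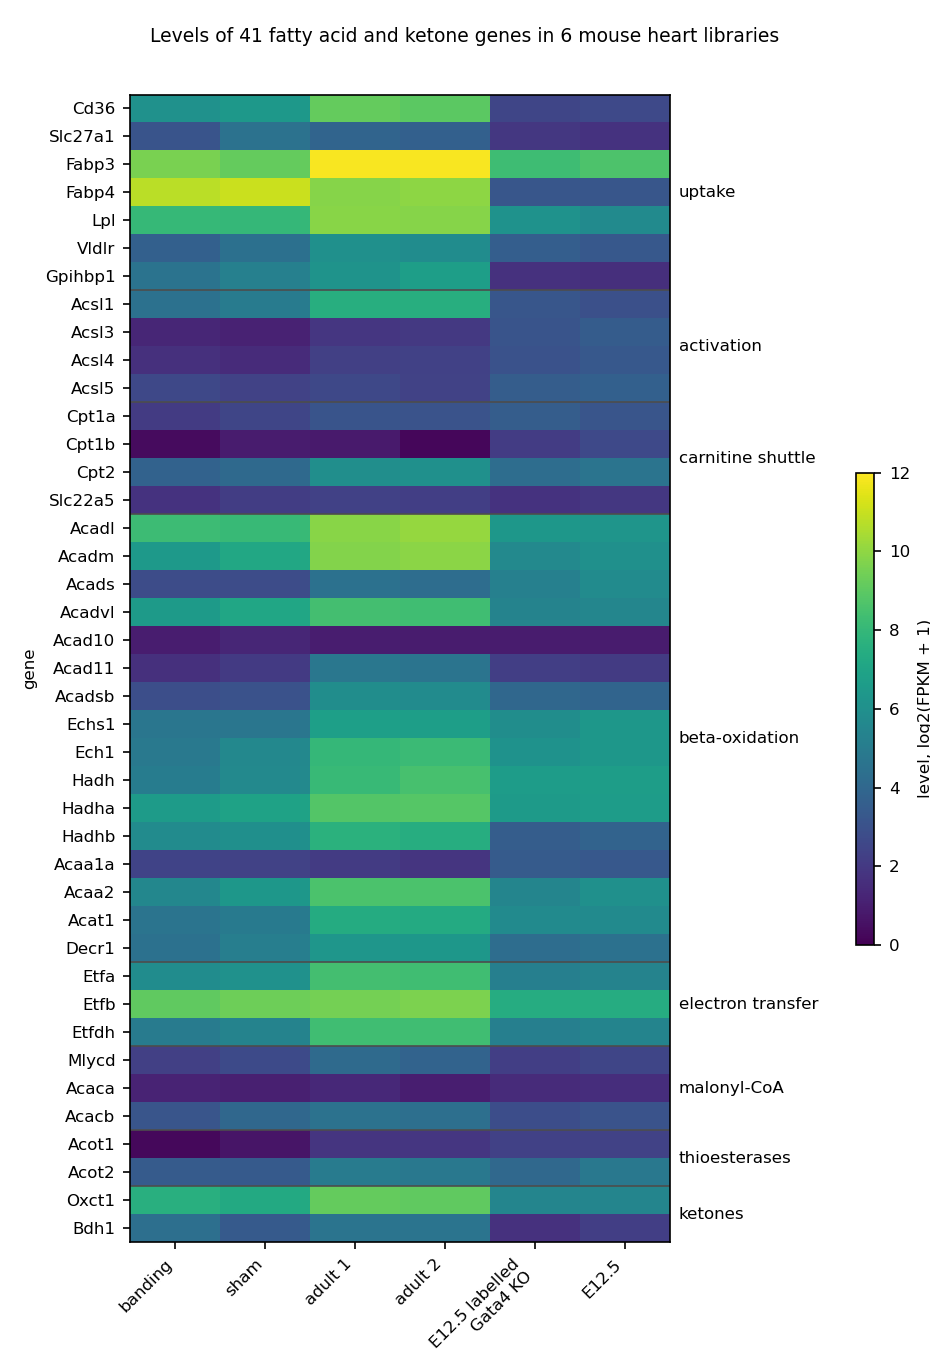
Level of each of the 41 genes, as log2(FPKM + 1) by colour, in the 6 libraries (columns), with genes in rows by step. The adult columns are the brightest for most rows, whereas Fabp4 is brightest in banding and sham and Acsl3, Acsl4, Acsl5 and Acads are brightest in the E12.5 columns.

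Adult heart against E12.5 heart asked how the pathway differs between the mature and the embryonic organ. Most members rose in adult, led by the fatty acid carriers Fabp4 and Cd36, the capillary lipase anchor Gpihbp1 and the synthetase Acsl1. The other synthetases among the members, Acsl3, Acsl4 and Acsl5, fell, as did the short-chain dehydrogenase Acads and the peroxisomal thiolase Acaa1a. By limma with Benjamini-Hochberg adjustment over 12658 genes, at a threshold of 0.05, 29 of 40 tested members rose and 7 fell, whereas 23.4% of all tested genes rose and 48.4% fell. The median difference of the members was 1.99, against -0.51 over all tested genes. By a rule of size, which asks for a 2-fold ratio of FPKM or more and for 5 FPKM or more in the higher group, 28 of 37 measured members were higher and 6 lower, against 18.3% and 41.3% of all measured genes. After median-of-ratios scaling the same rule took 28 higher and 3 lower, against 26.6% and 32.5%. The spread in this fit comes from the adult pair, with 1 residual degree of freedom, and the single E12.5 library is taken to vary as that pair does. Between the adult libraries the median absolute difference of the members was 0.12, 36 of 41 differed by under 0.3, and 0 members passed the rule of size, against 0.279% of all measured genes higher and 0.31% lower in replicate 1.

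Sham heart against E12.5 heart set the operated control against the embryo with 1 library each, so it has no replicate check and no p-value. Uptake and ketone genes were higher in sham and the synthetases Acsl3 and Acsl4 and the dehydrogenase Acads lower, while beta-oxidation genes split. By size 15 of 36 measured members were higher in sham and 9 lower, against 10.9% and 61.0% of all measured genes. After median-of-ratios scaling 23 were higher and 3 lower, against 27.2% and 32.8%. The median difference of the members was 0.28 as deposited and 1.09 after that scaling, beside medians of -1.28 and -0.17 over all measured genes. With that scaling 10 of the 41 members turned from below to above 0, and they were Cpt1a, Cpt2, Acad11, Acadsb, Ech1, Hadh, Acaa1a, Acat1, Etfdh and Acaca. This comparison and that of adult share the E12.5 library.

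Sham heart against adult heart asked how far the operated control stands from adult heart. The beta-oxidation genes fell nearly throughout, and Fabp4 and the transporter Slc27a1 rose. By limma over 11582 genes 2 of 40 tested members rose in sham and 32 fell, against 13.7% and 44.8% of all tested genes. By size 1 of 32 measured members was higher and 27 lower, against 6.56% and 43.6%, and after median-of-ratios scaling 3 were higher and 19 lower, against 19.6% and 19.0%. The members' median was -1.51 as deposited, beside -0.74 over all measured genes, and -0.89 after that scaling, beside -0.01. The operation, any difference in age and the higher Rn45s level differ together between these groups and cannot be told apart.

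Banding against sham had 1 library each and likewise no p-value. Only Bdh1 and Slc27a1 passed the rule of size, Bdh1 higher and Slc27a1 lower, which is 1 of 31 measured members in each direction against 3.19% and 1.62% of all measured genes. Bdh1 no longer passed under any of the 3 other scalings, and after median-of-ratios scaling 0 members were higher and 1 lower, against 2.69% and 1.82%. Most members nonetheless lay a little lower in banding, 29 of 41 with weakly expressed members included, while 57.7% of all measured genes lay higher. After median-of-ratios scaling 32 of 41 lay lower, while 50.4% of all measured genes lay higher. The median difference of the members was -0.34 beside 0.06 over all measured genes, and -0.40 beside 0.00 after that scaling. The library labelled Gata4 KO against E12.5 had no member past the rule of size in either direction among 32 measured, against 1.85% and 1.01% of all measured genes. After median-of-ratios scaling 0 passed as well, against 1.84% and 0.943%. The members' median was -0.15 beside -0.05.

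**Figure D2:**
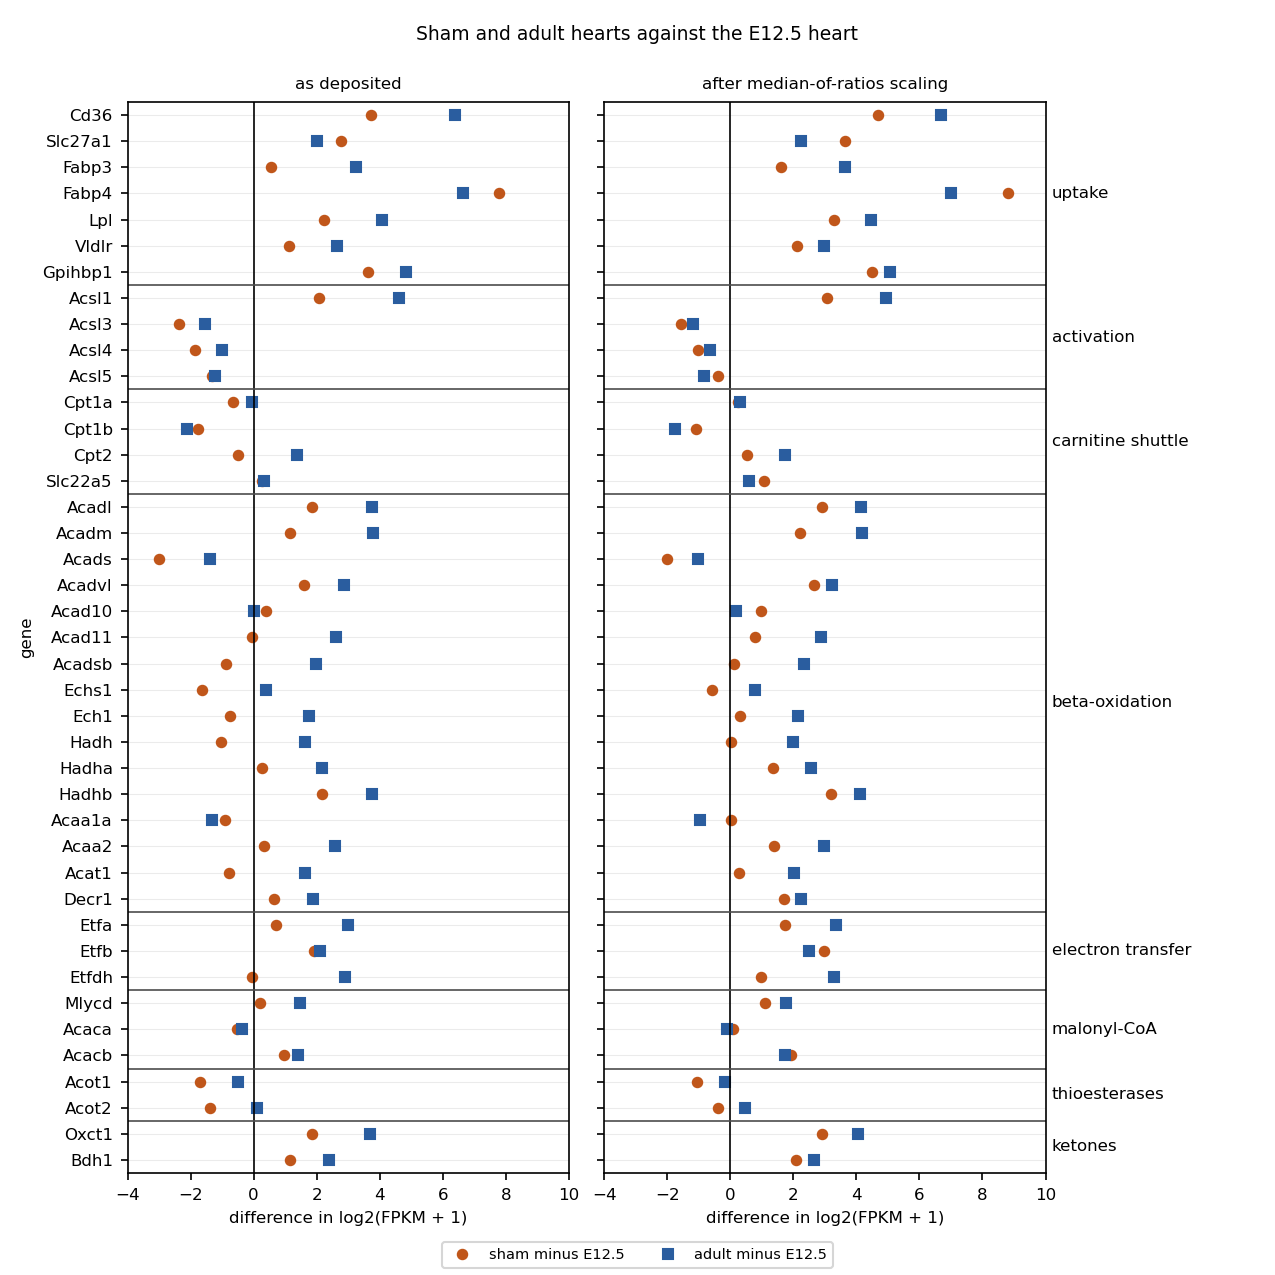
Difference in log2(FPKM + 1) of sham minus E12.5 (circles) and adult minus E12.5 (squares) for each gene, as deposited (left) and after median-of-ratios scaling (right), with genes by step. Adult lies right of sham for nearly all beta-oxidation genes, sham lies right of adult for Fabp4 and Slc27a1, and the scaling moves the sham points to the right.

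Uptake had the largest median difference of the 8 steps in adult against E12.5, at 4.09. Lpl, the lipoprotein lipase that frees fatty acids from circulating triglyceride, stood at 8.02 in banding, 7.99 in sham, 9.84 in both adult libraries, 6.12 in the library labelled Gata4 KO and 5.75 in E12.5. Gpihbp1, which holds the lipase on the capillary wall, stood at 4.56 in banding, 5.21 in sham, 6.15 and 6.75 in adult, 1.70 in the library labelled Gata4 KO and 1.60 in E12.5. Vldlr, a receptor that helps deliver triglyceride-rich particles, stood at 3.68 in banding, 4.41 in sham, 6.02 and 5.82 in adult, 3.61 in the library labelled Gata4 KO and 3.29 in E12.5. All 3 were highest in adult and lowest in the E12.5 libraries. Both adult libraries stood above the other 4 for 25.4% of all genes with at least 5 FPKM in some library. For Vldlr, banding lay only slightly above the library labelled Gata4 KO as deposited, and at 4.19 against 3.18 after median-of-ratios scaling. Against E12.5 the adult level rose by 4.09 for Lpl (SE 0.06, adjusted p = 0.0040 by limma), 4.85 for Gpihbp1 (SE 0.33, adjusted p = 0.0067) and 2.63 for Vldlr (SE 0.13, adjusted p = 0.0049). In sham the 3 genes fell against adult by 1.85, 1.23 and 1.51, with limma adjusted p of 0.0027, 0.033 and 0.0043. After median-of-ratios scaling the fall of Gpihbp1 did not pass (-0.57, adjusted p = 0.16, and 0.16 to 0.24 over the 3 scalings). The lipase exceeded its anchor 11.4-fold in banding and 6.998-fold in sham by FPKM, against 13.2-fold and 8.59-fold in adult, 30.4-fold in the library labelled Gata4 KO and 26.1-fold in E12.5. The adult libraries themselves differ in this ratio by more than counting error, with 95% intervals of 12.2 to 14.2 and 8.07 to 9.14.

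Cd36, the main fatty acid translocase of the muscle membrane, stood at 6.09 in banding and 6.38 in sham, at 9.15 and 8.95 in adult, at 2.52 in the library labelled Gata4 KO and at 2.66 in E12.5. The 3 pairs of libraries lay far apart. Adult exceeded E12.5 by 6.39 (SE 0.12, limma adjusted p = 0.0040), and sham exceeded E12.5 15.4-fold in FPKM, with a counting interval of 13.9 to 17.1. Against adult, sham fell by 2.67 (SE 0.12, limma adjusted p = 0.0027), which was 2.00 after median-of-ratios scaling.

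Slc27a1, a fatty acid transport protein of the plasma membrane, ran differently, with 3.14 in banding, 4.53 in sham, 3.87 and 3.67 in adult, 1.95 in the library labelled Gata4 KO and 1.77 in E12.5. Sham was thus its highest library. Slc27a1 rose in sham by 0.76 against adult (SE 0.14, limma adjusted p = 0.018), and in adult by 2.00 against E12.5 (SE 0.15, adjusted p = 0.0072). On the log2 scale it was the member furthest below sham in banding, at 0.352 of its sham FPKM with a counting interval of 0.307 to 0.403. By FPKM ratio the weakly expressed Acot1 and Cpt1b lay lower still, at 0.314 and 0.345.

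The cytosolic fatty acid binding proteins exchanged places. Fabp3, the heart form, stood at 9.59 in banding and 9.18 in sham, against 11.87 and 11.89 in adult, 8.29 in the library labelled Gata4 KO and 8.64 in E12.5. Fabp4, the form of fat cells, macrophages and capillary endothelium, stood at 10.75 in banding and 11.03 in sham, against 9.82 and 9.95 in adult, 3.19 in the library labelled Gata4 KO and 3.23 in E12.5. Fabp3 was highest in adult, whereas Fabp4 was highest in the operated hearts and lowest in the E12.5 libraries. Sham exceeded E12.5 249-fold in Fabp4 FPKM, with a counting interval of 207 to 303, and adult exceeded E12.5 by 6.65 (SE 0.09, limma adjusted p = 0.0040). Sham against adult rose by 1.15 for Fabp4 (SE 0.11, limma adjusted p = 0.0052) and fell by 2.71 for Fabp3 (SE 0.10, limma adjusted p = 0.0027).

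Within each library Fabp3 made up 30.9% of the summed FPKM of Fabp3 and Fabp4 in banding and 21.7% in sham, against 80.6% and 79.4% in adult, 97.5% in the library labelled Gata4 KO and 97.9% in E12.5. As a share of reads, with exact 95% binomial intervals, this was 30.2% to 31.4% in banding and 21.1% to 22.2% in sham, against 80.2% to 81.0% and 79.0% to 79.8% in adult. These intervals cover counting error only. Fabp3 overlaps the protein-coding gene Zcchc17 in RefSeq GRCm38, so its level is uncertain. The adult pair spans little of the gap to the operated hearts, and these shares do not depend on scaling. Brown adipocyte markers summed to 19.2 FPKM in banding and 19.9 FPKM in sham, against 55.5 and 52.1 FPKM in adult. Their sums were 9.11 FPKM in the library labelled Gata4 KO and 16.2 FPKM in E12.5. The other adipocyte markers were low throughout. These 7 adipocyte markers summed to 0.879 FPKM in banding and 0.487 FPKM in sham, against 3.95 and 4.01 FPKM in adult, 2.53 FPKM in the library labelled Gata4 KO and 2.33 FPKM in E12.5. The defining adipocyte genes Adipoq and Plin1 were at 0 in sham. The 8 endothelial markers summed to 278 FPKM in banding and 297 FPKM in sham, against 300.0 and 299.6 FPKM in adult, 387 FPKM in the library labelled Gata4 KO and 281 FPKM in E12.5. After median-of-ratios scaling these sums were 405 FPKM in banding and 448 FPKM in sham, against 287 and 277 FPKM in adult. Of the 8, Egfl7 and Esam lay above both adult libraries in both operated hearts as deposited and 5 lay below them. Egfl7 alone stood at 90.9 FPKM in banding and 103 FPKM in sham, against 20.8 and 21.1 FPKM in adult, as deposited. It thus weighs heavily in the scaled sums, and the markers above adult after scaling were not counted. No macrophage markers were counted. The part of fat cells, macrophages and endothelial cells in the Fabp4 result was not tested. Fabp3, Fabp4, Gpihbp1 and Etfb are the members with transcripts under 1000 bases, and over all measured genes of that length the median of sham minus adult was -0.29, against -0.74, -0.83 and -0.77 in the bins from 1000, 2000 and 4000 bases upward. The part of transcript length in the Fabp4 result was not tested.

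**Figure D3:**
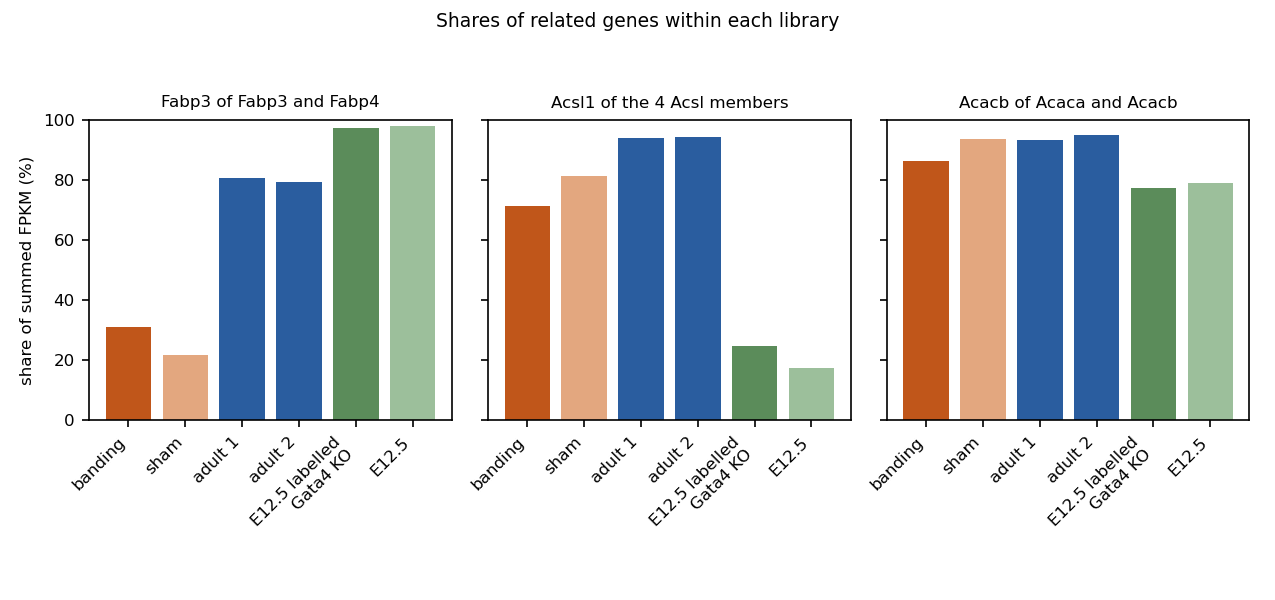
Share of Fabp3 in the summed FPKM of Fabp3 and Fabp4 (left), of Acsl1 in that of the 4 Acsl genes (middle) and of Acacb in that of Acaca and Acacb (right), in percent, 1 bar per library. Fabp3 is lowest in banding and sham, at 30.9% and 21.7%, Acsl1 is lowest in the library labelled Gata4 KO and in E12.5, at 24.6% and 17.5%, and Acacb holds from 77.4% to 95.1% in every library.

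Among the transcripts of the 4 Acsl members, the share of Acsl1 was larger in adult than in the E12.5 libraries. Acsl1, the long-chain acyl-CoA synthetase of heart mitochondria, stood at 4.49 in banding, 5.003 in sham, 7.52 and 7.55 in adult, 3.22 in the library labelled Gata4 KO and 2.92 in E12.5. Acsl3, Acsl4 and Acsl5, other long-chain synthetases, ranged from 1.31 to 2.59 in banding, from 1.13 to 2.37 in sham, from 1.89 to 2.59 in adult, from 3.04 to 3.55 in the library labelled Gata4 KO and from 3.30 to 3.70 in E12.5. Acsl1 was highest in adult and lowest in the E12.5 libraries, and the other 3 were each highest in the E12.5 libraries. In adult Acsl1 rose by 4.61 (SE 0.06, limma adjusted p = 0.0040) while Acsl3 fell by 1.54, Acsl4 by 1.00 and Acsl5 by 1.21 (limma adjusted p = 0.0087, 0.013 and 0.016). These falls passed limma after median-of-ratios scaling as well, by 1.17, 0.65 and 0.85. Acsl1 made up 71.3% of the summed FPKM of the 4 genes in banding and 81.4% in sham, against 94.0% and 94.3% in adult, 24.6% in the library labelled Gata4 KO and 17.5% in E12.5. As a share of reads the exact 95% interval was 69.5% to 73.9% in banding and 79.8% to 83.5% in sham, so banding lay below sham by more than counting error, with no replicate to set it against.

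Of the 4 carnitine shuttle genes 1 rose and 1 fell in adult against E12.5 by limma, against 23.4% and 48.4% of all tested genes. Cpt1a, the form of carnitine palmitoyltransferase 1 that dominates in liver and in the fetal heart, stood at 2.08 in banding and 2.49 in sham, against 3.12 and 3.09 in adult, 3.56 in the library labelled Gata4 KO and 3.15 in E12.5. Its adult level differed from E12.5 by -0.05 (SE 0.10, limma adjusted p = 0.70) and by 0.29 after median-of-ratios scaling (adjusted p = 0.11). Cpt1b, the muscle form and the textbook gate of fatty acid entry in adult heart, stood at 0.37 in banding and 0.89 in sham, against 0.87 and 0.22 in adult, 2.12 in the library labelled Gata4 KO and 2.67 in E12.5. These values rest on 12 reads in banding and 30 in sham, against 30 and 6 in adult, 172 in the library labelled Gata4 KO and 327 in E12.5. Cpt1b was thus highest in the E12.5 libraries and low in all others, and it was the member on which the adult libraries differed most, by 0.64. Its fall in adult by 2.13 passed limma (SE 0.36, adjusted p = 0.025). In RefSeq GRCm38 a read-through transcript, Gm44502, spans Chkb and Cpt1b, is not among the listed symbols and overlaps Cpt1b. Chkb itself had 0 to 1 reads in banding, sham and adult, 12 in the library labelled Gata4 KO and 13 in E12.5. How the counting handled reads shared by these genes is not stated in the sources used here, so the Cpt1b values are uncertain.

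Cpt2, the inner-membrane transferase that hands acyl groups back to CoA, stood at 3.76 in banding and 4.12 in sham, against 5.94 and 6.02 in adult, 4.29 in the library labelled Gata4 KO and 4.60 in E12.5. The adult libraries lay above the other 4. Cpt2 rose by 1.38 in adult against E12.5 (SE 0.08, limma adjusted p = 0.0055) and fell by 1.86 in sham against adult (SE 0.09, limma adjusted p = 0.0027). Sham lay at 0.704 of the E12.5 FPKM as deposited, with a counting interval of 0.631 to 0.785, and 0.54 above it on the log2 scale after median-of-ratios scaling. Slc22a5, the plasma membrane carnitine carrier, stayed between 1.76 and 2.31 in all 6 libraries as deposited. Its adult level differed from E12.5 by 0.33 (SE 0.13, limma adjusted p = 0.11), and after median-of-ratios scaling it rose by 0.60 (adjusted p = 0.039, and 0.033 to 0.041 over the 3 scalings).

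Beta-oxidation held the longest list of rises. Of its 16 genes 13 rose in adult against E12.5 by limma and 2 fell, against 23.4% and 48.4% of all tested genes. Acad10, under 1 FPKM in those libraries, was not tested. The acyl-CoA dehydrogenases that open each round separate by chain length. Acadvl, for very long chains, stood at 6.52 in banding, 7.11 in sham, 8.43 and 8.31 in adult, 5.37 in the library labelled Gata4 KO and 5.51 in E12.5. Acadl, for long chains, stood at 8.24 in banding, 8.09 in sham, 9.88 and 10.11 in adult, 6.36 in the library labelled Gata4 KO and 6.24 in E12.5. Acadm, for medium chains, stood at 6.49 in banding, 7.20 in sham, 9.76 and 9.90 in adult, 5.66 in the library labelled Gata4 KO and 6.04 in E12.5. All 3 were highest in adult, intermediate in the operated hearts and lowest in the E12.5 libraries.

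Acads, for short chains, ran the other way, with 2.79 in banding, 2.78 in sham, 4.46 and 4.31 in adult, 5.24 in the library labelled Gata4 KO and 5.78 in E12.5. The E12.5 libraries were the highest and the operated hearts the lowest. In adult against E12.5 Acadvl rose by 2.86, Acadl by 3.76 and Acadm by 3.79 (limma adjusted p = 0.0040, 0.0041 and 0.0040), and Acads fell by 1.398 (SE 0.11, limma adjusted p = 0.0076). Acads fell by a further 1.61 in sham against adult (SE 0.13, limma adjusted p = 0.0038). After median-of-ratios scaling its falls were 1.01 and 1.00, and both passed. Acads made up 1.21% of the summed FPKM of the 4 dehydrogenases in banding and 1.05% in sham, against 0.967% and 0.784% in adult, 17.7% in the library labelled Gata4 KO and 22.7% in E12.5. Per length, Acadm exceeded Acads 15.1-fold in banding and 24.9-fold in sham, against 41.3-fold and 50.9-fold in adult, 1.35-fold in the library labelled Gata4 KO and 1.20-fold in E12.5.

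The start of Acadm is printed because the members' promoters were searched for the letters AAGGTCA, a motif read by the estrogen-related receptors, nuclear receptors known for driving fatty acid oxidation genes. The 250 bases before the start lie at chr3:153944644-153944893 on the minus strand of GRCm38.p6, from RefSeq, and are given 5′ to 3′ in the direction of the gene. Capitals mark the match, which reads AAGGTCA on the opposite strand and lies 242 bases before the start.
Acadm: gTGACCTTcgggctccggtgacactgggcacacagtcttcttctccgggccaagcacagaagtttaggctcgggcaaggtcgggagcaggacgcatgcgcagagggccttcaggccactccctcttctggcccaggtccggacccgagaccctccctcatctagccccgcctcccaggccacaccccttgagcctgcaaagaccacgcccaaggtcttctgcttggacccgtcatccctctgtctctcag
Searched on both strands, AAGGTCA occurred in 4.08% of 32851 such windows of all genes. Among the members, 34 matched the table, with 39 windows, and Acadm alone held it, in 1 window. The longer TCAAGGTCA, which contains it, occurred in 0.387% of windows and in 0 of the 34 members, and the DR1 element, a direct repeat of AGGTCA spaced by 1 base that PPAR reads with RXR, in 0.0335% and in 0 members. A match describes the letters and is not a site or a cause.

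The remaining dehydrogenases act mainly outside the central spiral. Acadsb, for short branched chains from isoleucine, stood at 2.88 in banding, 3.01 in sham, 5.90 and 5.81 in adult, 3.99 in the library labelled Gata4 KO and 3.88 in E12.5. Acad11, which accepts long and hydroxylated chains, stood at 1.68 in banding, 2.03 in sham, 4.74 and 4.60 in adult, 2.24 in the library labelled Gata4 KO and 2.07 in E12.5. Both were higher in adult than in the other 4 libraries. They rose in adult against E12.5 by 1.98 and 2.61 (limma adjusted p = 0.0043 and 0.0044) and fell in sham against adult by 2.85 and 2.64 (limma adjusted p = 0.0027 each), which were among the largest falls of all members. Acad10 stayed between 0.90 and 1.30 in all 6 libraries as deposited. Acad11 and Acad10 each overlap another protein-coding gene in RefSeq GRCm38, Ackr4 and Brap, and whether the counting used strand is not stated in the sources used here.

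The trifunctional protein carries out the last 3 reactions on long chains, with Hadha coding for its alpha and Hadhb for its beta subunit. Hadha stood at 6.58 in banding, 6.92 in sham, 8.78 and 8.84 in adult, 6.52 in the library labelled Gata4 KO and 6.64 in E12.5. Hadhb stood at 5.81 in banding, 5.995 in sham, 7.67 and 7.47 in adult, 3.53 in the library labelled Gata4 KO and 3.82 in E12.5. Hadha in the operated hearts lay close to the E12.5 level as deposited, whereas Hadhb lay well above it. After median-of-ratios scaling, sham minus E12.5 was 1.34 for Hadha and 3.21 for Hadhb. Adult rose by 2.17 for Hadha (SE 0.07) and by 3.75 for Hadhb (SE 0.12), with a limma adjusted p of 0.0040 for each. Sham exceeded E12.5 1.21-fold in Hadha, with a counting interval of 1.17 to 1.26, and 4.80-fold in Hadhb, with an interval of 4.34 to 5.31. Within a library, Hadha exceeded Hadhb 1.71-fold in banding and 1.91-fold in sham, against 2.17-fold and 2.59-fold in adult, 8.59-fold in the library labelled Gata4 KO and 7.54-fold in E12.5. The counting intervals ran from 1.62 to 2.02 over banding and sham, from 2.10 to 2.68 over adult and from 6.91 to 9.57 over the E12.5 libraries. The 2 subunits of 1 enzyme thus differed in balance between the E12.5 and the later hearts, a ratio that no scaling moves.

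The interval between the starts of Hadha and Hadhb is printed because the genes are read in opposite directions from it and yet differed in this balance. It lies at chr5:30154981-30155252 of GRCm38.p6, from RefSeq, and its 272 bases are given on the plus strand, 5′ to 3′. Capitals mark GGGCGG, the letters bound by Sp1, which occur 2 times.
Hadha to Hadhb: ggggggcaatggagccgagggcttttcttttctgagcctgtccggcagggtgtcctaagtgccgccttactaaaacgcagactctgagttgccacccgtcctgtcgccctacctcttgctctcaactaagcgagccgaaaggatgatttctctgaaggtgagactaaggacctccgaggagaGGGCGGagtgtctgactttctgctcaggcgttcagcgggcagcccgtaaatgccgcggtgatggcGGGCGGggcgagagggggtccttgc
In the windows of 250 bases GGGCGG was found in 32.7% of all genes' windows and in 21 of the 39 member windows, from 20 of 34 member genes.

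Echs1, the short-chain enoyl-CoA hydratase, stood at 4.70 in banding, 4.72 in sham, 6.75 in both adult libraries, 5.88 in the library labelled Gata4 KO and 6.35 in E12.5. Hadh, the soluble hydroxyacyl-CoA dehydrogenase, stood at 5.03 in banding, 5.66 in sham, 8.10 and 8.52 in adult, 6.65 in the library labelled Gata4 KO and 6.70 in E12.5. Both were lower in the operated hearts than in the E12.5 libraries as deposited. Echs1 rose in adult by 0.40 (SE 0.06, limma adjusted p = 0.020), short of the rule of size, and Hadh rose by 1.62 (SE 0.24, limma adjusted p = 0.020). In sham the FPKM was 3.17-fold below E12.5 for Echs1, with a counting interval of 2.86 to 3.50, and 2.08-fold below for Hadh, with one of 1.94 to 2.23. After median-of-ratios scaling the differences were -0.58 for Echs1 and 0.021 for Hadh, so the sign for Hadh turned.

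Acaa2 is the mitochondrial thiolase that cleaves the finished ketoacyl-CoA, and it stood at 5.55 in banding, 6.35 in sham, 8.58 and 8.61 in adult, 5.44 in the library labelled Gata4 KO and 6.01 in E12.5. Acat1, the thiolase of acetoacetyl-CoA that also serves ketone use, stood at 4.61 in banding, 4.96 in sham, 7.37 and 7.33 in adult, 5.75 in the library labelled Gata4 KO and 5.73 in E12.5. Acaa1a, a thiolase of peroxisomes, stood at 2.40 in banding, 2.39 in sham, 2.07 and 1.86 in adult, 3.43 in the library labelled Gata4 KO and 3.29 in E12.5. The mitochondrial thiolases peaked in adult and the peroxisomal one was lowest there. Acaa2 rose in adult by 2.59 and Acat1 by 1.62 (limma adjusted p = 0.0040 and 0.0042), and Acaa1a fell by 1.33 (SE 0.16, limma adjusted p = 0.015). Sham minus E12.5 was -0.90 for Acaa1a as deposited and 0.020 after median-of-ratios scaling.

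Ech1 and Decr1 handle double bonds of unsaturated fatty acids. Ech1 stood at 4.83 in banding, 5.59 in sham, 8.01 and 8.16 in adult, 6.10 in the library labelled Gata4 KO and 6.34 in E12.5. Decr1 stood at 4.49 in banding, 5.11 in sham, 6.32 and 6.35 in adult, 4.31 in the library labelled Gata4 KO and 4.46 in E12.5. Adult was highest for both, and as deposited the operated hearts were lowest for Ech1 and intermediate for Decr1. After median-of-ratios scaling Ech1 in sham lay 0.30 above E12.5. In adult they rose by 1.75 and 1.88 (limma adjusted p = 0.0056 and 0.0040). Sham against adult fell by 2.50 for Ech1 and by 1.22 for Decr1 (limma adjusted p = 0.0027 and 0.0032). Altogether 14 of the 16 beta-oxidation genes fell in sham against adult by limma and 0 rose, with a median difference of -1.97, beside the shares of 44.8% falling and 13.7% rising over all tested genes. After median-of-ratios scaling 14 fell as well and 2 rose, against 23.3% and 31.9% of all tested genes, with a median of -1.30. Those that rose there were Acaa1a, by 0.98 (limma adjusted p = 0.023), and Acad10, by 0.78 (limma adjusted p = 0.017).

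Electrons of the first dehydrogenation leave through the flavoprotein of Etfa and Etfb and its ubiquinone oxidoreductase Etfdh. Etfa stood at 5.82 in banding, 6.06 in sham, 8.40 and 8.31 in adult, 5.19 in the library labelled Gata4 KO and 5.37 in E12.5. Etfb stood at 9.07 in banding, 9.34 in sham, 9.48 and 9.63 in adult, 7.44 in the library labelled Gata4 KO and 7.43 in E12.5. Etfdh stood at 4.97 in banding, 5.37 in sham, 8.33 in both adult libraries, 5.20 in the library labelled Gata4 KO and 5.44 in E12.5. As deposited, Etfb in sham lay 0.21 below adult, while Etfa and Etfdh in sham lay 0.70 above and 0.06 below E12.5. In adult against E12.5 all 3 rose, by 2.99, 2.12 and 2.90 (limma adjusted p = 0.0040, 0.0049 and 0.0040). In sham against adult Etfa fell by 2.29 and Etfdh by 2.96 (limma adjusted p = 0.0027 each), and Etfb differed by -0.21 (SE 0.11, limma adjusted p = 0.18). After median-of-ratios scaling Etfb instead rose by 0.47 in sham (adjusted p = 0.034, and 0.026 to 0.034 over the 3 scalings), and in sham Etfa and Etfdh lay 1.75 and 0.99 above E12.5. Etfb exceeded its partner Etfa 9.64-fold in banding and 9.86-fold in sham, against 2.12-fold and 2.50-fold in adult, 4.87-fold in the library labelled Gata4 KO and 4.26-fold in E12.5. Etfdh lay at 0.546 of Etfa in banding and 0.614 in sham, against 0.957 and 1.02 in adult, 1.01 in the library labelled Gata4 KO and 1.05 in E12.5. Both ratios set the operated hearts apart from the other 4 libraries by more than the adult pair spans. Etfb is 815 bases long and Etfa 1464, and Etfb overlaps the protein-coding gene Cldnd2, so the Etfb level is uncertain, as is that of Etfdh, which overlaps Ppid.

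Malonyl-CoA blocks the entry of fatty acids at the carnitine shuttle, and 3 members make or remove it. Acacb, the mitochondrial acetyl-CoA carboxylase of muscle, stood at 3.18 in banding, 4.02 in sham, 4.54 and 4.40 in adult, 2.83 in the library labelled Gata4 KO and 3.07 in E12.5. Mlycd, the decarboxylase that destroys malonyl-CoA, stood at 2.29 in banding, 2.71 in sham, 4.13 and 3.83 in adult, 2.21 in the library labelled Gata4 KO and 2.52 in E12.5. Acaca, the cytosolic carboxylase of lipid synthesis, stayed between 1.02 and 1.57 in all libraries. Maker and remover were both highest in adult as deposited. After median-of-ratios scaling Mlycd kept that order, and Acacb was highest in sham, at 4.58 against 4.48 and 4.29 in adult. Acacb rose in adult against E12.5 by 1.404 (SE 0.11, limma adjusted p = 0.0077) and Mlycd by 1.46 (SE 0.19, limma adjusted p = 0.016), and Acaca differed by -0.36 (SE 0.22, limma adjusted p = 0.23). Acacb made up 86.4% of the FPKM of both carboxylases in banding and 93.6% in sham, against 93.2% and 95.1% in adult, 77.4% in the library labelled Gata4 KO and 78.9% in E12.5. Banding held 0.527 of the sham FPKM of Acacb, with a counting interval of 0.486 to 0.571, just short of the rule of size.

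The acyl-CoA thioesterases Acot1 of the cytosol and Acot2 of mitochondria release free fatty acids again. Acot2 stood at 3.45 in banding, 3.40 in sham, 4.97 and 4.81 in adult, 4.06 in the library labelled Gata4 KO and 4.80 in E12.5. Acot1 was weak throughout, at 0.24 in banding, 0.66 in sham, 1.85 and 1.89 in adult, 2.32 in the library labelled Gata4 KO and 2.35 in E12.5. The operated hearts were lowest for both genes as deposited, and after median-of-ratios scaling the library labelled Gata4 KO was lowest for Acot2, at 3.62. Acot2 in adult differed from E12.5 by 0.10 (SE 0.11, limma adjusted p = 0.48, and 0.045 to 0.060 over the 3 scalings), and in sham it fell by 1.49 against adult (SE 0.12, limma adjusted p = 0.0039). Acot1 fell in adult by 0.49 (SE 0.12, limma adjusted p = 0.047), a call that did not pass after median-of-ratios scaling (-0.18, adjusted p = 0.26, and 0.19 to 0.42 over the 3 scalings). The pair has closely similar coding sequences, so reads could be split between them and their values are uncertain.

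Ketone use rested on Oxct1, the succinyl-CoA transferase that commits ketone bodies to oxidation, and Bdh1, the mitochondrial hydroxybutyrate dehydrogenase. Oxct1 stood at 7.58 in banding, 7.30 in sham, 9.16 and 9.09 in adult, and 5.44 in both the library labelled Gata4 KO and E12.5. Bdh1 stood at 4.38 in banding, 3.41 in sham, 4.63 and 4.62 in adult, 1.70 in the library labelled Gata4 KO and 2.25 in E12.5. As deposited both genes were highest in adult and higher in banding than in sham, and both separated the operated hearts from the E12.5 libraries. After median-of-ratios scaling Bdh1 was highest in banding, at 4.91 against 3.96 in sham and 4.57 and 4.51 in adult. In adult they rose by 3.68 for Oxct1 (SE 0.07) and 2.38 for Bdh1 (SE 0.08), with a limma adjusted p of 0.0040 for each. In sham against adult they fell by 1.82 and 1.21 (limma adjusted p = 0.0027 and 0.0040). Oxct1 exceeded Bdh1 9.55-fold in banding and 16.3-fold in sham, against 23.9-fold and 23.0-fold in adult, 18.8-fold in the library labelled Gata4 KO and 11.3-fold in E12.5.

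Between banding and sham the members differed by a median of 0.36 in absolute terms, against 0.12 between the adult libraries and 0.18 between the library labelled Gata4 KO and E12.5. Over all measured genes the same medians were 0.22, 0.12 and 0.18. The largest gap of a member within the adult pair was 0.64, that of Cpt1b, from 30 and 6 reads. How many of all measured genes differed by more than this between banding and sham was not counted. In banding 8 members did so, and they were Slc27a1, Vldlr, Gpihbp1, Acadm, Ech1, Acaa2, Acacb and Bdh1. Bdh1 alone of these was higher in banding, by 2.06-fold in FPKM with a counting interval of 1.82 to 2.33. Acadm stood at 0.610 of its sham FPKM, Ech1 at 0.584, Acaa2 at 0.573 and Vldlr at 0.581. Fabp3 and Oxct1 were higher in banding by 1.33-fold and 1.21-fold, with counting intervals of 1.28 to 1.38 and 1.17 to 1.25, and Acadl by 1.11-fold. Counting error left 1 outside the interval for 30 of the 41 members, but it also did so for 23 of 41 between the adult libraries, so it is a smaller error than the spread between libraries. Fibroblast markers, 5 of 5 above 1 FPKM in every library, summed to 673 FPKM in banding and 254 FPKM in sham, and the cardiomyocyte markers to 26000 and 29395 FPKM. The part of these cell types in the members' differences was not tested.

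**Figure D4:**
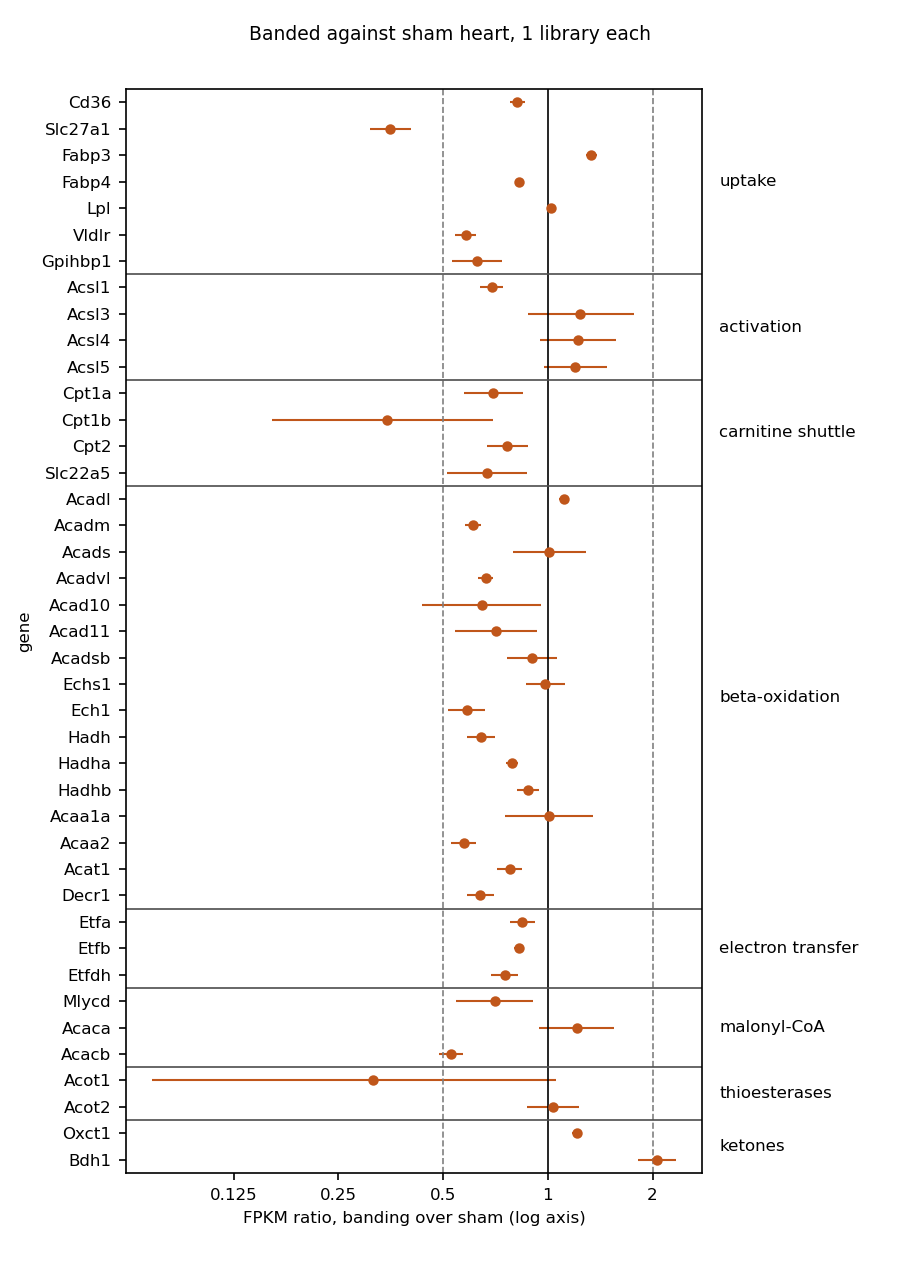
FPKM ratio of banding over sham for each of the 41 genes, on a log axis, 1 library each, with exact 95% intervals from the recovered reads as bars (counting error only) and dashed lines at 0.5 and 2. Bdh1 lies past 2, Slc27a1 lies below 0.5 with the low-count genes Cpt1b and Acot1, and most other points lie between 0.5 and 1.

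In the library labelled Gata4 KO the largest difference from E12.5, by level and by FPKM ratio, was that of Acot2, at 0.586 of its FPKM with a counting interval of 0.531 to 0.646. Bdh1 stood at 0.601 of its E12.5 FPKM, Cpt1b at 0.622, Acaa2 at 0.670 and Acads at 0.681, and on the higher side Cpt1a at 1.37-fold and Lpl at 1.30-fold. The order of members hardly differed, with Fabp3, Etfb, Hadh and Hadha on top of both libraries. Erythroid markers summed to 64667 FPKM in the library labelled Gata4 KO and 21255 FPKM in E12.5, the cardiomyocyte markers to 21775 and 32780 FPKM. Their part in the small differences was not tested.

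Counting which libraries were highest, 28 of the 37 members with at least 5 FPKM in some library had both adult libraries above the other 4, against 25.4% of all such genes. After median-of-ratios scaling 25 did, against 23.2%. Fabp4 was the member with banding and sham above the other 4 as deposited, where 6.68% of all genes showed this order, and after scaling Etfb joined it, against 22.9%. The members with both E12.5 libraries on top numbered 7 as deposited, against 55.5%, and 4 after scaling, against 37.5%, and these 4 were Acsl3, Acsl4, Acsl5 and Acads.

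Other genes of the pathway were counted from 4 lists. Of 18 further uptake and activation genes 13 were tested, and 5 rose and 4 fell in adult against E12.5 by limma. Acss1, the mitochondrial acetyl-CoA synthetase, stood at 3.49 in banding, 3.95 in sham, 6.55 and 6.44 in adult, 2.44 in the library labelled Gata4 KO and 1.89 in E12.5, and Slc27a4, a fatty acid transport protein, was lower by size, at 1.51 and 1.55 in adult against 3.42 in E12.5. Fabp5 was higher by size in the library labelled Gata4 KO, at 6.90 against 5.89 in E12.5. Of 16 further carnitine and mitochondrial genes matched, 6 of 15 tested rose in adult and 4 fell, and 12 of 15 fell in sham against adult while 1 rose. Acot13, a mitochondrial thioesterase, stood at 8.75 in banding, 8.48 in sham, 10.26 and 10.35 in adult, 6.64 in the library labelled Gata4 KO and 7.03 in E12.5, and Hibch, of valine breakdown, and Ivd, of leucine breakdown, were lower in sham by size, at 3.04 against 5.92 and 5.89 in adult for Hibch and 2.57 against 5.51 and 5.50 for Ivd. These limma counts stand beside 23.4% and 48.4% of all genes rising and falling in adult, and 13.7% and 44.8% in sham against adult. By size 10 of the carnitine and mitochondrial genes were lower in sham than in adult as deposited and 6 after median-of-ratios scaling. The shares of all measured genes were 43.6% and 19.0%.

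Of 14 tested genes of peroxisomal oxidation 7 rose in adult and 2 fell, and 9 fell in sham against adult while 0 rose. Over all tested genes 23.4% rose and 48.4% fell in adult, and 13.7% rose and 44.8% fell in sham against adult. By size 8 peroxisomal genes were lower in sham than in adult as deposited and 6 after median-of-ratios scaling. The shares of all measured genes were 43.6% and 19.0%. Phyh, which starts the alpha-oxidation of phytanic acid, stood at 6.96 in banding, 6.82 in sham, 8.58 and 8.56 in adult, 4.54 in the library labelled Gata4 KO and 5.13 in E12.5. Scp2, with a peroxisomal thiolase form, was higher by size, at 6.61 in both adult libraries against 4.11 in E12.5, and Acot8, a peroxisomal thioesterase, was lower, at 2.08 and 2.11 in adult against 3.41 in E12.5. Of 7 tested genes of ketone handling and transport 3 rose in adult and 2 fell. Slc16a1, the monocarboxylate carrier that admits lactate and ketone bodies, stood at 2.94 in banding, 2.82 in sham, 5.37 and 4.98 in adult, 4.98 in the library labelled Gata4 KO and 5.62 in E12.5, so the operated hearts held the least. By size 0 genes of the 4 lists differed between banding and sham, where 3.19% of all measured genes were higher in banding and 1.62% lower.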

How the data were processed

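The values deposited by the authors are log2(FPKM + 1), 1 per gene symbol and library, with no coordinates. That scale follows from the values. With the log2 step undone, whole reads and mapped totals were recovered for 100% of 98043 values above 0, within 0.001 of a read. Per the submitters' processing notes, the series used build mm9 with MACS 1.4, BWA 0.5.9, HTSeq 0.5.3, TopHat 1.4 and CASAVA 1.8.2, and the tool that made these files is not given in the sources at hand. Per the labels' protocols, the RNA was pooled, selected for poly(A) and reverse transcribed from random hexamers. The other 39 samples, of chromatin immunoprecipitation and input, were not analysed here.

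Libraries were grouped by title. The limma package, version 3.58.1 under R 4.3.3, compared adult with E12.5 and sham with adult over genes that reached 1 FPKM in any of the 3 libraries, using a mean-variance trend, adjustment after Benjamini and Hochberg, 1 residual degree of freedom and 1.53 and 2.55 prior degrees of freedom. Its p-values measure only the spread between the adult libraries, which may be technical. The rule of size asks for a ratio of 2 or more and 5 FPKM or more in the higher group, with adult at its back-transformed mean. Ratios between single libraries or genes carry exact conditional binomial 95% intervals from the recovered reads, which cover counting error only, since the reads have no molecular identifiers. Adding 1 before the log makes differences of weakly expressed genes too small. A design planned for FPKM was kept, since only the log step had been done already. The fit was also run on simulated data drawn from adult means without a library-wide shift, so that run does not cover the shifts seen here.

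The members and lists were chosen with earlier results of these data known. The text names all 41 members, Gata4, up to 2 genes per other list and direction among those past the rule of size, and the marker lists. Chkb and Rn45s were named after their values were seen. Alternatives were 3 other scalings, other thresholds of size, another pseudocount and filter, limma without trend, each adult library left out and shares by reads. Of the hepatocyte and brown adipocyte markers, the sums were at most 2.24 FPKM and from 9.11 to 55.5 FPKM. In RefSeq GRCm38, 8 members overlap another protein-coding gene and 20 overlap any gene, so their counts are uncertain. The 8 are Fabp3, Acsl3, Acad10, Acad11, Echs1, Etfb, Etfdh and Acaca. Promoter windows are those of RefSeq GRCm38.p6, matched by symbol.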

Additional observations from a re-analysis of the deposited data

How the results depend on the processing

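No paired analysis was possible because 4 of the 5 groups have 1 library. Under upper-quartile, median-of-ratios and top-50-free scaling, in this order, the members called by size in sham against E12.5 were 23, 23 and 23 higher and 3, 3 and 3 lower, against 15 and 9 as deposited. In sham against adult they were 3, 3 and 3 higher by size, against 1, and 5, 5 and 6 higher by limma, against 2, or 1 with no filter. Over all genes tested by limma, 31.9% were higher in sham after median-of-ratios scaling, against 13.7% as deposited. In adult against E12.5 the members lower by size were 2 with upper-quartile and 3 with median-of-ratios scaling, against 6. In banding against sham 0 were higher under each scaling, against 1, and 2 lower without the 50 highest genes, against 1. At 3-fold, 3 were lower in adult and 5 in sham against E12.5, 0 higher in sham against adult, and 0 and 0 in banding. At 1.5-fold, 2 were higher in sham against adult, 10 lower in banding and 2 lower in the library labelled Gata4 KO. The shares of all measured genes at 3-fold and at 1.5-fold were not counted. These member counts therefore show only how the calls move with the threshold. Sham minus E12.5 turned from below to above 0 for 10 of 41 members under each scaling. Among those called by size as deposited these were Hadh, at 0.15, 0.021 and 0.050, and Acaa1a, at 0.13, 0.020 and 0.045. Sham minus adult turned for 6, 5 and 6 members and adult minus E12.5 for Cpt1a. The cause of these moves was the scaling or threshold itself. Leaving out either adult library kept every adult count by size within 1.5 times. With 1 adult library left, no limma test could be fitted. Depth limits Cpt1b and Acot1, with 6 and 4 reads in their lowest library.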
